A study of Mus musculus with 4 samples.

Results

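The genes described here are 10 components of the Polycomb repressive complexes: Pcgf1, Ezh2, Eed, Suz12, Ring1, Rnf2, Bmi1, Cbx2, Phc1 and Jarid2. They were taken by their gene symbol in the array platform's annotation, and all 10 were present, on 22 of 46128 spots and among 14386 named genes. The set was chosen by measured values: Pcgf1 was selected on its day 10 ratio, the farthest on the positive side in these same data, and the other 9 are subunits of the same complexes. The values of Pcgf1 are therefore a description. The samples come from CGR8, a line of mouse embryonic stem cells, left to differentiate as embryoid bodies, the cell aggregates that form in hanging drops. Arrays with 2 channels set total RNA from day 3 or day 10 aggregates against RNA of the undifferentiated cells at day 0, so every ratio has RNA of the same line on both sides. Of the 4 arrays, 2 belong to each day, and the labels call the later one a technical replicate. Each day is therefore 1 RNA pair from 1 cell line, every SD here measures only the technical spread, and no significance test was possible.

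Polycomb proteins keep developmental genes silent in cells that do not need them. Polycomb repressive complex PRC2 methylates histone H3 at K27 through its catalytic subunit Ezh2, with Eed and Suz12 as obligate partners and Jarid2 as an accessory subunit that binds DNA and aids recruitment. PRC1 places ubiquitin on histone H2A through the RING-finger E3 ligases Ring1 (RING1A) and Rnf2 (RING1B), each paired with a member of the PCGF family. Canonical PRC1 holds Bmi1 (PCGF4) or Pcgf2, a chromobox protein such as Cbx2 that reads the methyl mark, and a Polyhomeotic protein such as Phc1. Pcgf1 marks a variant PRC1 that lacks a chromobox protein and is brought to unmethylated CpG islands by Kdm2b, with the co-repressors Bcor or Bcorl1. In embryonic stem cells these complexes cover the promoters of many lineage regulators, and loss of PRC2 subunits leaves the cells alive but poorly able to differentiate.

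All values are log2 ratios of the channels, with the median of each array set to 0 and the spots of a gene averaged on each array. The sources used here do not say which day is the numerator, so signs are printed as deposited and do not tell which day had more RNA. In RNA of whole aggregates, fewer cells of a type and less RNA per cell cannot be told apart. The call used throughout, beyond 2-fold, asks that each array of a day be at least 1 away from 0 with the same sign. Values were present on 37471 to 41386 spots per array. Across genes, which are not independent replicates, the technical arrays correlated at Pearson r 0.271 at day 3 (Spearman rho 0.335, 13707 genes) and 0.215 at day 10 (rho 0.261, 13199 genes). The median SD of a gene over its pair of arrays was 0.28 at day 3 and 0.36 at day 10. Of 17 markers of embryonic stem cells, 16 were measured at day 3, with 2 called on the negative side, beside 1.03% of all genes there, none on the positive side and a median of -0.36. The called markers were Dppa5a at -2.71 ± 0.04 and Zfp296 at -2.15 ± 0.67, in mean ± SD of the 2 arrays. At day 10, 15 were measured, none was called, beside 3.54% of all genes, and the median was -0.36, but it was 0.15 on replicate 1 and -0.59 on replicate 2. Between the days 1 of 15 was called, the growth factor gene Fgf4 with a difference of 1.60 ± 0.41, beside 3.54% of all genes. A list of 10 fibroblast markers had no member called at either day, with medians of 0.09 and -0.20. Beside 2.80% and 3.54% of all genes called, few or none of the 10 would be called at the background share.

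At day 3 none of the 10 Polycomb genes was beyond 2-fold on both arrays, where 2.80% of all measured genes were, 1.77% with a positive and 1.03% with a negative ratio. Their means ran from -0.53 for Phc1 to 0.72 for Jarid2, with a median of -0.13 beside 0.01 for all genes. At day 10, 9 were measured on both arrays and 1 was called, Pcgf1 on the positive side, where 3.54% of all genes were called, 2.15% on that side and 1.39% on the negative side. The other 8 means at day 10 ran from -0.49 for Eed to 2.18 for Phc1, with a median of 0.10 beside -0.01 for all genes. Rnf2 had a value on 1 of the day 10 arrays and so has no mean there. For day 10 minus day 3, 1 of 9 genes was called, again Pcgf1 on the positive side, beside 3.54% of all genes (1.82% positive, 1.72% negative). Since Pcgf1 was selected on this ratio, these counts say nothing about the set. Read on single arrays, 14.4% and 12.8% of all genes lay beyond 2-fold at day 3, and 20.4% and 16.2% at day 10. Of the 10 genes, Eed and Jarid2 did so on day 3 replicate 1, none on replicate 2, Pcgf1 and Phc1 on day 10 replicate 1 and Pcgf1 on replicate 2.

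**Figure D1:**
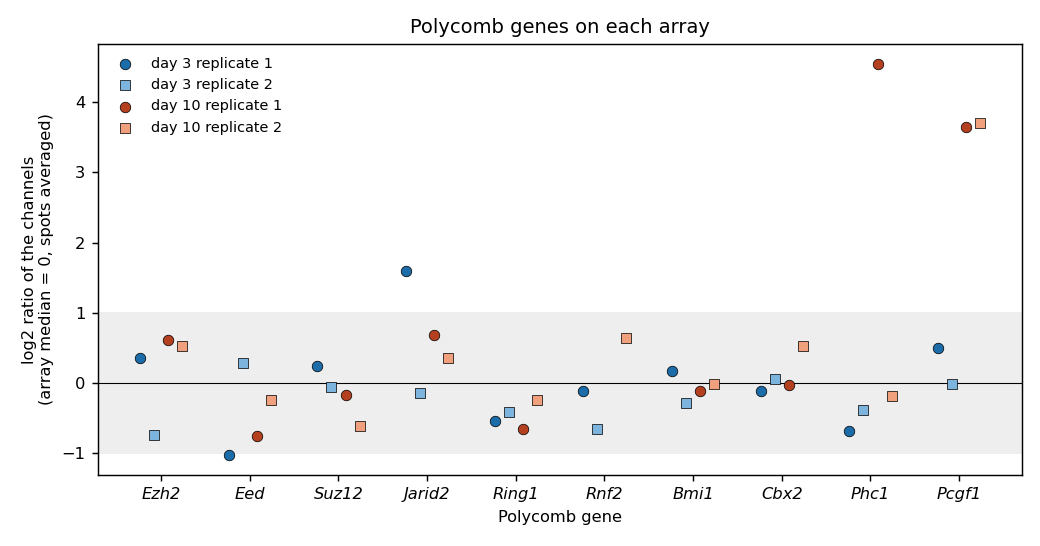
Log2 ratio (vertical axis, array median at 0) of the 10 Polycomb genes (horizontal axis) on each of the 4 arrays, with the band inside 2-fold shaded. Pcgf1 lies at 3.64 and 3.71 on the day 10 arrays, while Phc1 lies at 4.55 on day 10 replicate 1 and at -0.19 on replicate 2.

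At day 3 Pcgf1 had log2 ratios of 0.50 and -0.01, and at day 10 of 3.64 and 3.71. The day 10 arrays were both above both day 3 arrays. The means were 0.25 ± 0.36 at day 3 and 3.67 ± 0.05 at day 10 (SD, n = 2 technical arrays; every mean ± SD below is of this kind), the latter a 12.8-fold ratio and the first of 13199 genes from the top. The difference, day 10 minus day 3, was 3.43 ± 0.37, and the 4 differences between single arrays ran from 3.13 to 3.72. All 4 passed the limit, as did 3.54% of the 12654 genes measured on 4 arrays.

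The small SD of Pcgf1 at day 10 does not come from repeated reading of the same spot. Pcgf1 has 2 spots of 1 sequence record. On day 10 replicate 1 the first spot had no value and the second read 3.64, and on replicate 2 the first read 3.71 and the second had no value. Each array thus contributed 1 reading, and the readings came from different spots. At day 3 both spots were read on both arrays: the first at 0.75 and 0.58, the second at 0.25 and -0.61. The spots differed by 1.19 on day 3 replicate 2, where 14.4% of pairs of spots of 1 record differed by at least as much.

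As a description of the range in which the selected Pcgf1 readings lie, spots at or above 3.6 numbered 111 of 37471 spots on day 10 replicate 1 (0.296%) and 93 of 39955 on replicate 2 (0.233%). Many deposited values are the logarithm of a ratio of whole numbers, and the smallest such pair can be recovered, as a lower bound on the channel readings because a common factor is lost. For the Pcgf1 reading on day 10 replicate 1 that pair was 123 over 10, and on replicate 2 it was 6653 over 523. At day 3 the pairs were 2125 over 1286, 793 over 540, 1540 over 1321 and 186 over 289. The lower number of the replicate 1 reading, 10, was the smallest number in the 6 pairs. By the geometric mean of its pair, this reading ranked at percentile 2.1 of its array, and the replicate 2 reading at percentile 34.3. The 12.8-fold mean ratio thus rests in part on a reading that may lie near the floor. Because the pairs are lower bounds, how faint its channels were is not known.

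Among all genes, a larger share was called where no spot had been read on both arrays of a day. At day 10 there were 395 such genes, of which 29 (7.34%) were called and 26 (6.58%) were beyond 2-fold on opposite sides. Among the 12804 genes with at least 1 spot on both arrays, 438 (3.42%) were called and 169 (1.32%) were on opposite sides. Pcgf1 belongs to the first group, as does Cbx2. At day 3 every Polycomb gene had at least 1 spot read on both arrays.

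Missing values were unevenly placed among the Polycomb spots. Of 22 spots, all 22 carried a value on day 3 replicate 1 and 19 on replicate 2, against 14 and 18 at day 10. The share of readings missing was 6.82% at day 3, beside 10.4% over all named spots, and 27.3% at day 10, beside 15.3%. At day 10, 11 of the 22 spots were read on both arrays.

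**Figure D2:**
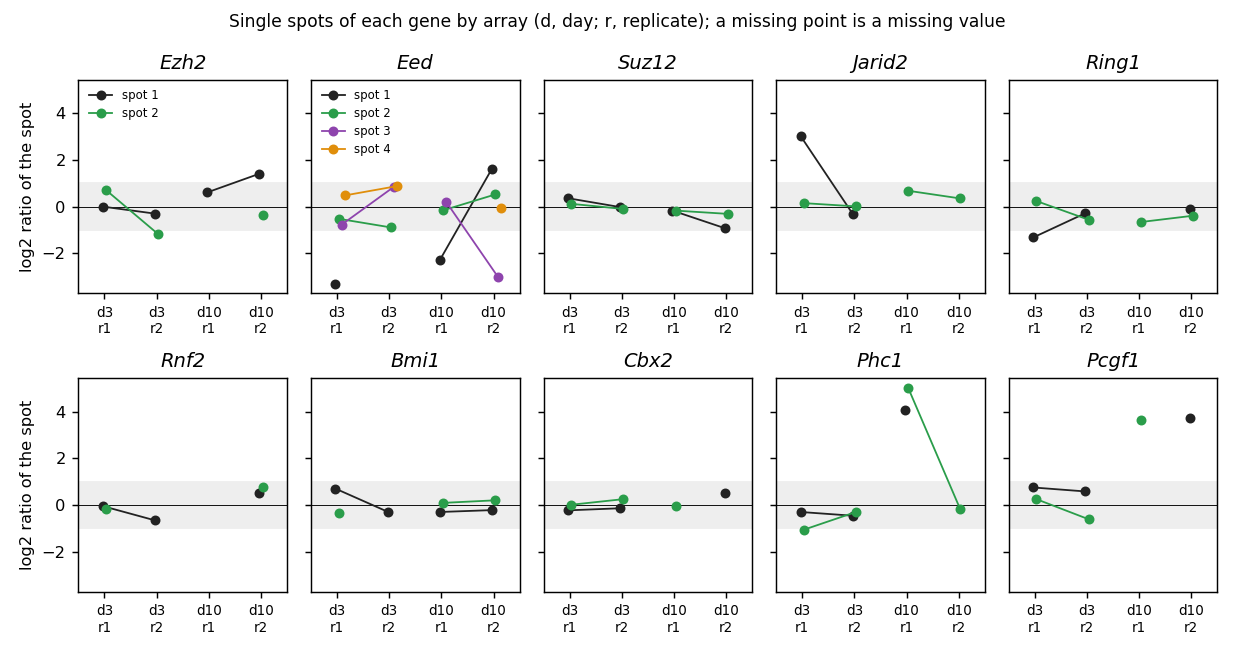
Log2 ratio (vertical axis) of each single spot of the 10 Polycomb genes on the 4 arrays (horizontal axis), with lines joining readings of the same spot on the technical arrays of a day and the band inside 2-fold shaded. The 2 day 10 readings of Pcgf1 come from different spots, and the joined spot of Phc1 reads 5.02 and -0.19.

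Of the PRC2 genes, the methyltransferase gene Ezh2 had 0.35 and -0.74 at day 3 and 0.61 and 0.53 at day 10. Both day 10 arrays were above both day 3 arrays, by 0.17 to 1.35, and the difference of 0.76 ± 0.78 was not called. The day 10 mean of 0.57 ± 0.06 hides a wide spread of spots: on replicate 2 they read 1.41 and -0.36, and on replicate 1 the first alone was read, at 0.61. On the first spot alone, the one read on all 4 arrays, the day 10 mean was 1.01 in place of 0.57.

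Eed, which encodes the subunit that binds the H3K27 methyl mark, had -1.03 and 0.28 at day 3 and -0.75 and -0.24 at day 10. The days overlap, with means of -0.37 ± 0.93 and -0.49 ± 0.36. Eed has 4 spots, of 2 sequence records, which makes it the only one of the 10 with more than 1 record. Averaged over the spots of the first record, the arrays read -1.91 and -0.89 at day 3 and -1.23 and 1.07 at day 10. Over those of the second they read -0.15 and 0.86 at day 3, then 0.21 and -1.55 at day 10. The records lay 1.44 to 2.62 apart and had opposite signs on 3 of the 4 arrays. The first was the lower on 3 arrays and the higher on day 10 replicate 2.

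The first Eed spot read -2.29 and 1.63 on the technical day 10 arrays, a gap of 3.91 that 0.959% of named spots reached. Its reading on replicate 2 was recovered as 3 over 1 and that on replicate 1 as 14 over 69. The third spot read 0.21 and -3.03, a gap of 3.24 that 2.33% of named spots reached. With the median of the spots in place of their mean, Eed moved from -0.49 to 0.03 at day 10.

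Suz12, the zinc-finger subunit that stabilises PRC2, was the only one of the 10 with every spot read on every array. Its arrays read 0.24 and -0.06 at day 3 and -0.17 and -0.62 at day 10. Both day 10 values were below both day 3 values, by 0.11 to 0.85, and the difference of -0.48 ± 0.38 was not called. Its 8 spot readings ran from -0.92 to 0.36. None of the 8 was a ratio of whole numbers up to 10000, so no pair was recovered for Suz12.

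Jarid2, the accessory subunit with an inactive Jumonji domain, had 1.59 and -0.15 at day 3 and 0.68 and 0.35 at day 10. Its day 3 mean of 0.72 ± 1.23, the highest of the 10, rests on 1 spot of replicate 1 that read 3.02 and read -0.32 on replicate 2. The other spot read 0.15 and 0.01 on the same arrays. The gap between the spots on replicate 1 was 2.87, which 2.58% of pairs of spots of that array reached. At day 10 only the second spot was read, and both arrays were positive, with a mean of 0.52 ± 0.24.

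**Figure D3:**
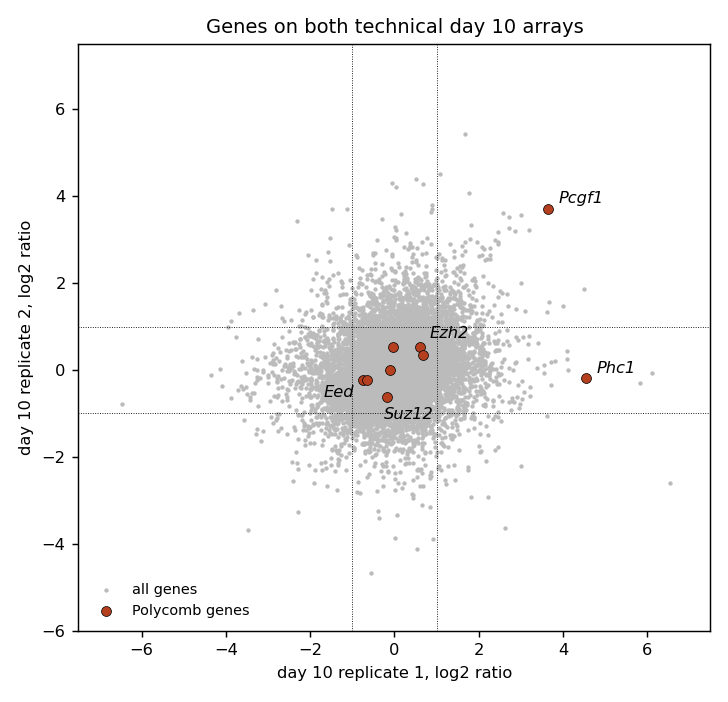
Each grey point is 1 of the 13199 genes read on both technical day 10 arrays, with the log2 ratio on replicate 1 on the horizontal axis and on replicate 2 on the vertical axis, the 9 Polycomb genes in red and dotted lines at 2-fold. Pcgf1 stands at the far upper right, while Phc1 is far out on replicate 1 alone.

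Of the catalytic PRC1 genes, Ring1 read -0.54 and -0.42 at day 3 and -0.66 and -0.24 at day 10. All 4 values were negative and the days overlap, with means of -0.48 ± 0.08 and -0.45 ± 0.30. The day 3 mean holds a first spot at -1.32 and a second at 0.24 on replicate 1. The second spot, read on all 4 arrays, gave a day 3 mean of -0.16. Rnf2, the ligase gene that carries most of the H2A ubiquitination in embryonic stem cells, read -0.11 and -0.66 at day 3, with a mean of -0.38 ± 0.39. At day 10 it had no value on replicate 1, and both of its spots were read on replicate 2, at 0.53 and 0.75. That array, at 0.64, was above both day 3 arrays, but there is no second array to set beside it.

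Of the canonical PRC1 genes, Bmi1 lay inside 2-fold on all 4 arrays. It read 0.17 and -0.29 at day 3 and -0.11 and -0.01 at day 10, and its difference between the days was 0.00 ± 0.33. Cbx2, the chromobox gene, read -0.11 and 0.06 at day 3 and -0.03 and 0.53 at day 10. Its day 10 mean of 0.25 ± 0.39 combines the second spot on replicate 1 with the first on replicate 2, the same arrangement of missing spots as in Pcgf1.

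Phc1, a Polyhomeotic gene whose protein forms head-to-tail chains through its SAM domain, gave the widest disagreement. It read -0.68 and -0.38 at day 3, with a mean of -0.53 ± 0.21, and 4.55 and -0.19 at day 10. Both of its spots were far out on day 10 replicate 1, at 4.08 and 5.02. They belong to the 60 of 37471 spots of that array at or above 4. On replicate 2 the first spot had no value and the second read -0.19. The gap of 5.21 for that spot between the technical arrays was reached by 0.193% of named spots, and the gene's SD of 3.35 by 0.121% of genes. Phc1 at 2.18 ± 3.35 was not called, and its mean depends on which array is read.

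In order of the day 10 mean, Pcgf1 at 3.67 and Phc1 at 2.18 were followed by Ezh2 at 0.57, Jarid2 at 0.52, Cbx2 at 0.25, Bmi1 at -0.06, Suz12 at -0.39, Ring1 at -0.45 and Eed at -0.49. Every neighbouring pair in this order except Bmi1 and Suz12 differed by less than the larger SD of the pair. For Pcgf1 with Phc1 and for Phc1 with Ezh2, that SD was the 3.35 of Phc1. On replicate 1 Phc1 at 4.55 lay above Pcgf1 at 3.64, and on replicate 2 the gene next to Pcgf1 at 3.71 was Rnf2 at 0.64. Both arrays had the same sign for 3 of 10 genes at day 3 (Ring1, Rnf2 and Phc1, all negative), beside 64.7% of all genes. At day 10 this held for 7 of 9 genes, 3 positive (Pcgf1, Ezh2 and Jarid2) and 4 negative (Eed, Suz12, Ring1 and Bmi1), beside 60.8% of all genes.

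Pcgf1 was also set beside the other members of the PCGF family, which compete for the same RING1 partners. Pcgf2 read -0.37 and -0.04 on the day 10 arrays, Pcgf3 -1.61 and -0.27, Bmi1 -0.11 and -0.01, Pcgf5 -0.77 and -0.90 and Pcgf6 0.11 and 0.41. None of the 5 was called at day 10, their means ran from -0.94 to 0.26, and 4 of the 5 were negative. At day 3, 4 of them were measured on both arrays and the means ran from -0.56 to -0.06. Pcgf1 lay above them on both day 10 arrays, which its selection on that ratio fixed in advance.

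Of the partners of PCGF1 in its variant complex, 0 of 9 were called at day 3 and 0 of 7 at day 10, beside 2.80% and 3.54% of all genes, so that few or none would be called at the background share. Kdm2b, the CpG-binding demethylase, read 0.08 and -0.96 at day 3, had no value on day 10 replicate 1 and read 1.25 on replicate 2. Bcor read 0.02 and 1.16 at day 3 and 0.56 and -1.56 at day 10, with the day 10 readings on opposite sides of 0. Bcorl1 read -0.58 and -1.01 at day 10, and Rybp, which stimulates the ligase, -0.77 and -0.30. The deubiquitinase gene Usp7 read -0.26 and -0.37. With Yaf2, Skp1, Ring1 and Rnf2 these partners number 9, of which 7 were measured on both arrays at day 10, 6 with a negative mean and 1 with a positive one.

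A wider list of 57 genes of Polycomb and its antagonists, without the 10 above, had 43 on named spots. At day 3, 39 were measured and none was called, beside 2.80% of all genes, with a median of -0.14. Asxl2, a cofactor of the H2A deubiquitinase Bap1, was the only 1 of 40 called at day 10, on the negative side, where 1.39% of all genes lay. The share of all genes called on either side was 3.54%, so that 1 of 40 is near the background. It read 0.12 and -0.44 at day 3 and -2.04 and -1.29 at day 10, and its 4 day 10 spot readings ran from -2.98 to -0.95. Its day 10 mean was -1.66 ± 0.53. The list's median at day 10 was -0.28, with 24 negative and 16 positive means.

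Between the days, 2 of 36 genes of this list were called, beside 3.54% of all genes. Scml2, a PRC1-associated protein gene, read -0.55 and -1.82 at day 3 and 0.67 and 0.55 at day 10, a difference of 1.79 ± 0.90. Mga, the scaffold of the variant PRC1 with Pcgf6, read 0.89 and 0.78 at day 3 and -0.52 and -0.44 at day 10, a difference of -1.31 ± 0.10. The SD of Mga is small although its spots disagreed: on day 3 replicate 2 they read -0.26 and 1.81.

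By group, the PRC2 accessory and alternative subunits had a day 10 median of -0.46 over 8 genes. Among them the catalytic paralogue Ezh1 read -0.78 and -1.08 at day 10, and the histone chaperone genes Rbbp4 and Rbbp7 had -0.43 ± 0.27 and -0.57 ± 0.12. Other PRC1 subunits had -0.20 over 9 genes, variant PRC1 partners -0.40 over 14, the deubiquitinase and PhoRC group 0.03 over 4, and the antagonists (H3K27 demethylases and Trithorax genes) -0.24 over 5. In the same order the day 3 medians were -0.14, -0.21, 0.00, -0.16 and 0.16. None of these genes was called at day 3.

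**Figure D4:**
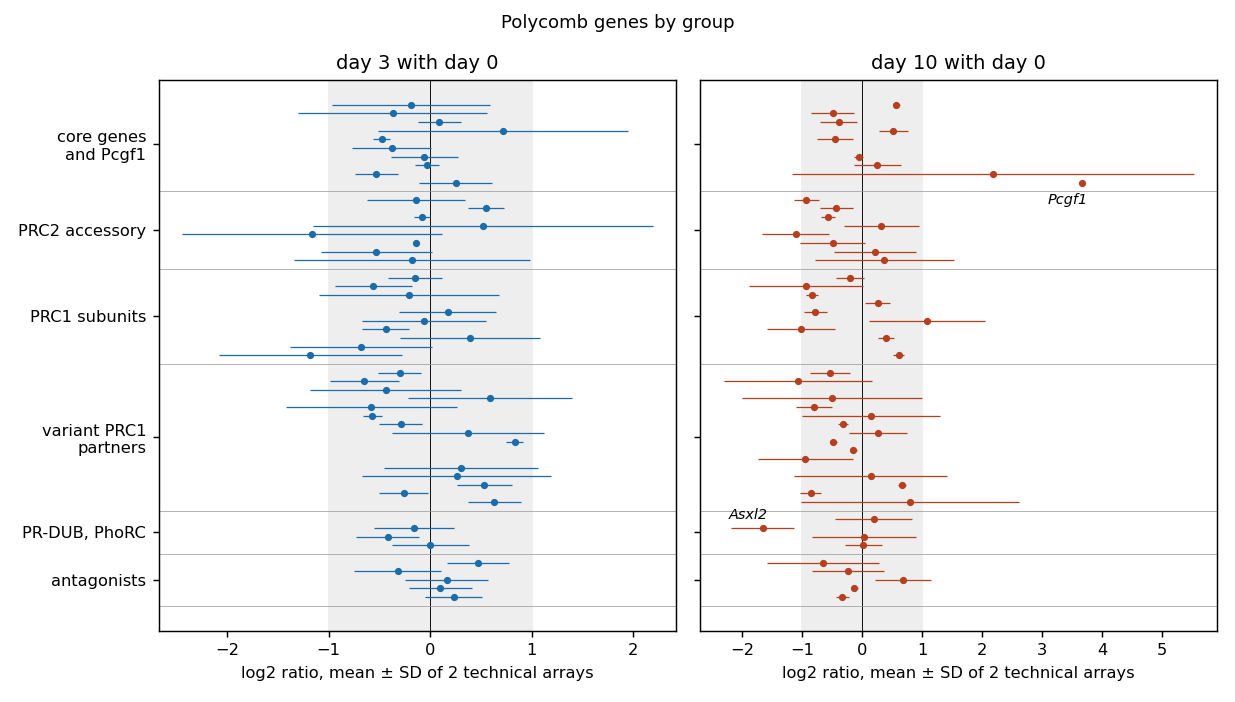
Mean log2 ratio ± SD of 2 technical arrays (horizontal axis) for the 10 core genes and the measured genes of 5 further Polycomb groups (rows), at day 3 (left) and day 10 (right), with the band inside 2-fold shaded and called genes named. No gene is called at day 3, and Pcgf1 at 3.67 and Asxl2 at -1.66 are called at day 10.

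Genes known as Polycomb targets in embryonic stem cells were read from a list of 45 regulators of development, of which 39 were on named spots. At day 3, 1 of 36 was called, the proneural factor gene Neurog2 at 1.22 ± 0.19 on the positive side, beside 2.80% of all genes. The SD of Neurog2 is small although its spots disagreed, at 0.31 and 1.86 on replicate 1 and at 1.64 and 1.07 on replicate 2. At day 10, 0 of 35 were called, beside 3.54%. The medians were -0.10 and -0.05.

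Of the 12654 genes read on all 4 arrays, those with the pattern nearest to Pcgf1, by Euclidean distance over the 4 array values, were Slc22a4 at a distance of 1.35, Daw1 at 1.36, Fth1 at 1.44, Nkx6-1 at 1.46 and Trap1 at 1.63. Slc22a4, an organic cation transporter gene, read -0.47 and 0.12 at day 3 and 2.87 and 3.20 at day 10. Fth1, which encodes ferritin heavy chain, read 0.87 and 1.22, then 3.00 and 3.56, and shares near-identical pseudogene copies, so that its value is uncertain. The other 3 were Daw1, an assembly factor of ciliary dynein, at 2.72 and 3.26 on the day 10 arrays, the homeodomain factor gene Nkx6-1 at 2.47 and 2.95 and the mitochondrial chaperone gene Trap1 at 2.47 and 2.90. All 5 had at least 1 spot read on both day 10 arrays, unlike Pcgf1. In the ranking of genes by the geometric mean of the pairs they stood at percentiles 80.3 to 94.9 at day 10, where Pcgf1 stood at 4.97. That ranking counts values with no recovered pair as bright, and pairs were recovered for 62.0% and 59.3% of values on the day 10 arrays. The percentiles of the 5 genes are therefore not a measured brightness.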

How the data were processed

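Per the labels, channel 1 held day 3 or day 10 RNA and channel 2 day 0 RNA. The deposited table gives 1 log2 ratio per spot and array, and its base was read from the values. For the scanner, background treatment, dye correction and handling of missing values, the details were not given in the sources used here. The number of arrays limits the precision.

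Spots were named from the platform's annotation, with symbols updated by Entrez ID in the RefSeq table of GRCm38.p6: 32544 spots had 1 symbol, 588 several and 12996 were unnamed here. The 480 spots of 5 records spotted 96 times with IDs of no mouse gene were left out as controls. Medians of the other spots were subtracted from each array, and spots were averaged per gene.

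A call for day 10 minus day 3 needed all 4 array differences at least 1 from 0 with the same sign. It takes the day 0 RNA as common to the arrays, which the labels do not state. Whole-number pairs up to 10000 were recovered for 59.3% to 62.0% of values of an array, and for at most 1.94% of 5000 values after a small random shift. The brightness trend used their geometric mean, with unrecovered values counted as bright. Steps were tested on simulated data.

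The 10 genes and all lists were chosen with earlier results of these data known. The rule for named genes takes the 10 genes, list members called in a comparison and the 5 genes nearest to Pcgf1. The PCGF family, the partners of PCGF1, Ezh1, Rbbp4 and Rbbp7 were added after their values were seen. Alternatives changed the centring, array spread, brightness trend (50 bins), limit, array agreement, spot averaging and missing-value filter, and left out each array. Python 3.11.15, numpy 2.4.6, pandas 2.3.3 and matplotlib 3.10.9 were used.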

Additional observations from a re-analysis of the deposited data

Results flagged for a closer look

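Both arrays of a day lay on one side of 0, and both of the other day on the opposite side, for 4 of the genes named. Scml2 was negative at day 3 and positive at day 10, a difference of 1.79, and so was the stem cell marker Fgf4, with 1.60. Mga was positive at day 3 and negative at day 10, a difference of -1.31, and so was Rbbp4, with -0.98. The difference between the days was not tested for any of them, since each day is 1 RNA pair. List genes not named above had the same sign pattern, among them Tbx3, Cdx2, Bmp2, Msx1, Foxa2 and Utf1. The share of all genes with this pattern was not counted, so the 4 cannot be set beside a background.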

How the results depend on the processing

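The call of Pcgf1 at day 10 held in every setting that gave it a value, which its selection on that ratio largely fixed in advance. It had no value with the spot of smallest array difference or with spots read on all 4 arrays, because no Pcgf1 spot was read on both day 10 arrays. The number of the 10 genes called at day 10 and between the days was 0 under both of those settings and 2 with the limit on the mean alone, which adds Phc1. Of all genes, 5.90% and 6.57% pass with the spot of smallest difference. The shares are 3.98% and 3.93% with spots on all 4 arrays, and 10.6% and 16.2% on the mean alone. The day 10 ratio of Pcgf1 was 3.39 with a common spread of arrays and 3.6 with the brightness trend removed, and the day 3 ratio 0.67 with the spot of smallest array difference. The median at day 10 over the 9 genes measured, Pcgf1 included, was 0.25. It was 0.22 without centring and 0.15 without the brightness trend. With the spot of smallest difference it was 0.18, and with spots on all 4 arrays -0.26. Pcgf1 and Cbx2 have no day 10 value in these last settings, so those medians are over fewer genes. Between the days the median over 9 genes was 0.03, and the same settings, again without Pcgf1 and Cbx2, gave 0.44 and -0.28.

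Counts of other Polycomb genes, at 0, 1 and 2 for day 3, day 10 and the difference, were 1, 8 and 4 at 1.5-fold, where 11.7%, 14.0% and 10.3% of all genes pass, and 2, 5 and 6 on the mean alone, where 7.97%, 10.6% and 16.2% pass. At 4-fold they were 0 for day 10 and the difference, where 0.220% and 0.356% of all genes pass. With spots on all 4 arrays they were also 0, where 3.98% and 3.93% pass. The spot of smallest difference gave 1 at day 3 and 3 at day 10, where 4.57% and 5.90% of all genes pass. Removal of the brightness trend gave 1 for the difference, where 3.64% pass. Target genes at day 3, 1 as reported, numbered 3 at 1.5-fold, 0 at 4-fold, 4 on the mean, 2 with the spot of smallest difference and 0 with spots on all 4 arrays. At day 10, 0 as reported, they numbered 3, 2 and 1 at 1.5-fold, on the mean and with the spot of smallest difference. The shares of all genes are those given above, with 0.175% at 4-fold and 3.20% with spots on all 4 arrays at day 3. The cause was not tested.

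With 1 array left out, a call rests on the array that remains, so more genes pass: at day 3 14.4% of all genes on replicate 1 and 12.8% on replicate 2, at day 10 20.4% and 16.2%. Between the days 10.0% to 15.4% of all genes pass, depending on the array left out. The 10 genes had 0 to 2 calls at day 3 (Eed and Jarid2 without replicate 2), 1 to 2 at day 10 (Phc1 added without replicate 2) and 1 to 2 between the days (Ezh2 added without day 3 replicate 1, Phc1 without day 10 replicate 2). Other Polycomb genes had 2 to 5, 7 to 11 and 2 to 9, and target genes 6 to 6 at day 3 and 7 to 8 at day 10. The median over the genes of the 10 with a value ran from -0.22 to 0.03 at day 3, -0.03 to 0.17 at day 10 and -0.03 to 0.29 between the days. Rnf2 enters the last 2 medians only where day 10 replicate 1 is left out, so the genes are not the same throughout. Pcgf1 ran from -0.01 to 0.50 at day 3, 3.64 to 3.71 at day 10 and 3.17 to 3.68 between the days. No paired analysis was possible because each day is 1 RNA pair read on technical arrays, and the labels give no replicate numbers. Single values of the other 9 genes kept within 1 SD in 25 of 25 results without centring and with a common spread, and moved in 8 of 23 with the spot of smallest array difference.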
